A study of Mus musculus with 3 samples.

Results

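The aminoacyl-tRNA synthetase genes were examined in a FAIRE-seq map of open chromatin in the mouse uterus on gestation day 4. A list of 36 synthetase genes was used, 20 for enzymes of the cytosol and 16 for enzymes of mitochondria. Peaks of the deposited table that overlapped a listed gene or the 10 kb on either side were taken as its peaks. They numbered 51 of the 12413 peaks in the table, and the 36 genes stood among 21523 protein-coding genes of a RefSeq gene table. All 36 were found by symbol. The choice of genes used no measured value, but earlier results of these data were known when it was made.

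The 3 samples were whole uteri of untreated wild-type C57BL/6J females, 6 to 10 weeks old, which had mated with fertile males and carried blastocysts in the uterine flush, the day of the vaginal plug being day 1. FAIRE (formaldehyde-assisted isolation of regulatory elements) recovers DNA that is not crosslinked to protein, so a peak marks DNA depleted of nucleosomes. The table names no sample: each peak has 1 value, with no spread between mice and an unknown depth, and no test was made. Epithelial, stromal, muscle, vascular and immune cells are mixed in a whole uterus, so a weak peak in every cell and a strong one in few cells cannot be told apart. Of 5 uterine marker genes, Hoxa10, Hoxa11, Pgr and Msx1 had a peak within 10 kb of the gene or inside it, while Esr1 had none. Such peaks were found at 18 of 38 markers of the tissue, its cell types and the blastocyst, a smaller share than the 57.6% of all protein-coding genes. They were found at 2 of 7 stromal, 1 of 4 endothelial, 2 of 4 immune and 3 of 5 blastocyst markers. Of 6 smooth muscle markers, Cnn1, Des and Mylk had one and Acta2, Myh11 and Tagln had none. Of 7 epithelial markers, Epcam, Cdh1 and Wnt7a had one and Krt8, Krt18, Krt19 and Foxa2 had none. The design text of the record speaks of RNA from 4 mice, whereas the protocol of these FAIRE samples gives 3 mice.

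Aminoacyl-tRNA synthetases join each amino acid to its tRNA, the step that sets the genetic code. Animal cells keep separate enzymes for the cytosol and for mitochondria, nearly all of them encoded in the nucleus by different genes. Several cytosolic enzymes sit in one multi-synthetase complex held by the scaffold proteins Aimp1, Aimp2 and Eef1e1. When amino acids run short, uncharged tRNA activates the kinase Gcn2 (Eif2ak4). The transcription factor Atf4 is then made, and it induces many cytosolic synthetase genes along with genes of amino acid synthesis and uptake. In the days around implantation the endometrium makes and secretes much protein.

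Open chromatin was found at almost every synthetase gene. At least 1 peak lay inside the gene or up to 10 kb from it at 34 of 36 genes (94.4%), against 57.6% of all protein-coding genes and 63.6% of those within the synthetase genes' range of lengths. The count was 19 of 20 for cytosolic and 15 of 16 for mitochondrial enzymes. The 2 genes without one were Iars, the cytosolic isoleucyl enzyme, and Tars2, the mitochondrial threonyl enzyme, whose nearest peaks lay 29022 bp and 51901 bp away. A single peak was present at 20 genes, 2 peaks at 11, 3 peaks at Aars and Qars, and 4 at Cars2.

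Most of the genes had a peak at the promoter. A gene start was known for 27 of the 36 genes, from a RefSeq promoter table, and 25 of these 27 had a peak within 1 kb of it, against 46.7% of all protein-coding genes with a known start. The start was not used here for Cars, Hars, Hars2, Lars, Nars, Pars2, Rars, Vars and Wars. At an annotated gene end, either one, 31 of 36 genes had a peak within 1 kb, against 44.5% of all protein-coding genes and 49.4% of those in the same range of lengths. A peak within 1 kb of the start, or of a gene end where no start was used, is called a promoter peak below. Promoter peaks were present at 33 of 36 synthetase genes (91.7%), at 18 of 20 cytosolic and 15 of 16 mitochondrial, against 46.2% of all protein-coding genes by the same rule and 51.5% of those in the same range of lengths. Besides Iars and Tars2, the exception was Cars, the cytosolic cysteinyl enzyme. The summit of its only peak lay 8219 bp outside the gene and 871 bp from an end of its neighbour Nap1l4, at 8.97-fold enrichment.

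Genes for ribosomal proteins, the other large set of translation genes, are given beside them with no test of the difference. Promoter peaks were present at 62 of 97 cytosolic ribosomal protein genes (63.9%) and at 59 of 78 mitochondrial ones (75.6%). Both sets were selected by symbol.

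**Figure D1:**
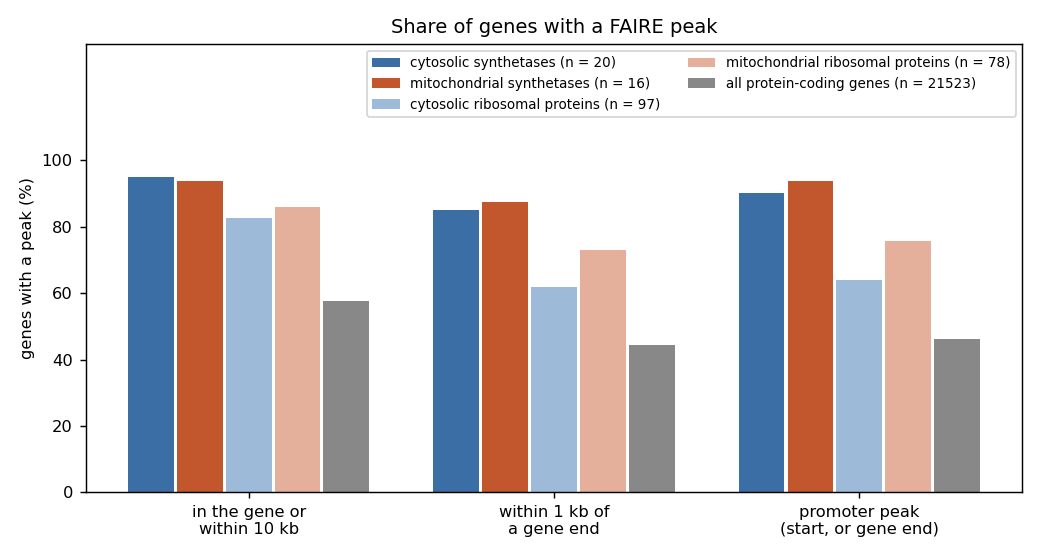
Share of genes (%) with a FAIRE peak by 3 rules, for cytosolic and mitochondrial synthetase genes, ribosomal protein genes and all protein-coding genes; bars have no error because the table names no sample. By the promoter rule the bars stand at 90% and 93.8% for the synthetases, 63.9% and 75.6% for the ribosomal proteins and 46.2% for all genes.

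Most of these promoter peaks were lower than is usual for a gene with one. The fold enrichment, the authors' value of a peak over its local background, had a median of 4.90 over the 33 promoter peaks and ran from 3.37 to 11.5. Over the 9947 protein-coding genes with a promoter peak the median was 6.37 (interquartile range 4.87 to 8.37). Of the 33, 10 (30.3%) lay above that median, 15 (45.5%) lay below the lower quartile of all genes and 5 (15.2%) above the upper quartile. The promoter peaks of ribosomal protein genes were similarly low, with medians of 5.04 for cytosolic and 5.35 for mitochondrial ones, and 46.8% and 42.4% of them below the same lower quartile. With the 6207 peaks of highest fold alone, promoter peaks remained at 11 of 36 synthetase genes (30.6%), against 27.5% of all protein-coding genes. With the 6207 peaks of highest −log10 q they also remained at 11 of 36, against 27.2%. By this promoter rule the share of synthetase genes was well above that of all genes over the whole list of peaks. Among the stronger peaks the share was near that of all genes for the 36 together, with the classes on either side. By fold it was 20% of cytosolic and 43.8% of mitochondrial genes, and by −log10 q 15% and 50%. In the 10 kb window, 47.2% of synthetase genes kept a stronger peak by either measure, against 36.2% and 35.9% of all genes.

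Mitochondrial enzymes had the higher values of the 2 classes. The median promoter fold was 5.64 (3.37 to 11.5) over 15 mitochondrial genes and 4.6 (3.37 to 10.1) over 18 cytosolic genes. Values above the median of all genes were found at 7 of 15 mitochondrial and 3 of 18 cytosolic genes. Values below the lower quartile of all genes were found at 5 of 15 and 10 of 18. The other columns of the table had the same order. The median pileup, the height of stacked fragments, was 64 and 36, and the median −log10 q 27.9 and 11.7, against 61 and 27.7 over all genes. The fold is a ratio of the pileup to local background, whose medians were close at 7.83 and 7.39. The pileup is thus no separate measurement, and the −log10 q belongs to the same peaks. The ranges of the classes overlapped almost entirely, genes are not replicates, and the difference was not tested.

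**Figure D2:**
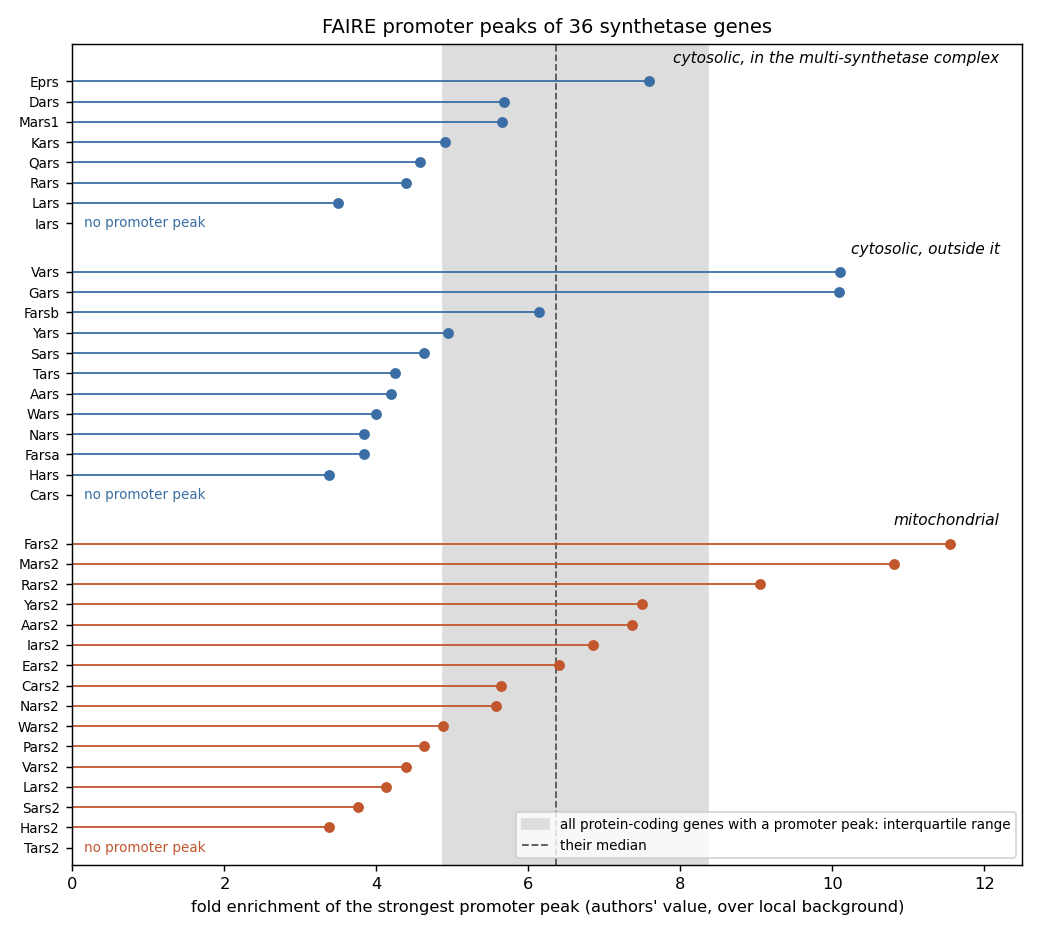
Fold enrichment of the strongest promoter peak of each synthetase gene (x axis, authors' value), grouped as complex members, other cytosolic enzymes and mitochondrial enzymes; the band and dashed line are the interquartile range (4.87 to 8.37) and median (6.37) of all genes with a promoter peak. Vars, Gars, Fars2, Mars2 and Rars2 lie above the band, and Iars, Cars and Tars2 have no promoter peak.

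The enzymes of the multi-synthetase complex had promoter peaks at 7 of 8 genes. Eprs, whose protein charges both glutamate and proline tRNAs, had the highest at 7.58-fold (chromosome 1, 185362864 to 185363473, pileup 76), the only one of the 7 above the median of all genes. Dars, the aspartyl enzyme, stood at 5.68 and Mars1, the methionyl enzyme, at 5.65. Kars, which yields both the cytosolic and the mitochondrial lysyl enzyme, stood at 4.90, Qars, the glutaminyl enzyme, at 4.57, and Rars, the arginyl enzyme, at 4.39. Lars, the leucyl enzyme, which also acts as a leucine sensor for the growth kinase mTORC1, was lowest at 3.50 (pileup 27). Iars, also in the complex, had no peak.

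Among the 12 cytosolic enzymes outside the complex, Vars and Gars stood apart from the rest. Vars, the valyl enzyme, had a peak of 10.1-fold and 924 bp (chromosome 17, 35000769 to 35001692, pileup 137). No start was used for Vars, so this peak was counted at a gene end. An end of another protein-coding gene also lay within 1 kb of it. Gars, which makes the glycyl enzyme of both compartments from 1 gene, also reached 10.1-fold (chromosome 6, 55037806 to 55038396, pileup 110). Both lay at percentile 88.9 of all genes with a promoter peak. Farsb, the beta subunit of the phenylalanyl enzyme, followed at 6.14, while Farsa, its alpha subunit, stood at 3.83. The subunits work together in 1 enzyme, and their promoter peaks differed in height, 51 against 32 in pileup.

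The remaining 8 with a peak lay between 3.37 and 4.94. They were Yars, the tyrosyl enzyme (4.94), Sars, the seryl enzyme (4.62), Tars, the threonyl enzyme (4.24), and Aars, the alanyl enzyme (4.19). Wars, the tryptophanyl enzyme, known for its induction by interferon, stood at 4.00, Nars, the asparaginyl enzyme, at 3.84 and Hars, the histidyl enzyme, at 3.37. Farsa, given above, completes the 8.

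The mitochondrial enzymes ran from 3.37 to 11.5-fold. Fars2, the phenylalanyl enzyme, led at 11.5-fold (chromosome 13, 36117261 to 36117837, pileup 132), followed by Mars2, the methionyl enzyme, at 10.8 (chromosome 1, 55236975 to 55237504, pileup 106). Rars2, the arginyl enzyme, reached 9.05, Yars2, the tyrosyl enzyme, 7.5, and Aars2, the alanyl enzyme, 7.36. Iars2 (6.84) and Ears2 (6.40), which in mitochondria charges glutamate onto glutamine tRNA as well, were also above the median of all genes. Below it stood Cars2 (5.64), Nars2 (5.58), Wars2 (4.87), Pars2 (4.62), Vars2 (4.38), Lars2 (4.12), Sars2 (3.75) and Hars2 (3.37).

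Lars2, the mitochondrial leucyl enzyme, held a weak peak at its start and a very strong one near its other end. The start peak had a pileup of 32 and a fold of 4.12 (chromosome 9, 123366727 to 123366943). The second had a pileup of 282 and a fold of 19.97 over a local background of 13.2, with its summit inside the gene, 95082 bp downstream of the start and 666 bp from the gene's end. It ranked 6 by fold among all 12413 peaks, whose median local background was 8.59. The sequence under this peak could not be read or compared with the rest of the genome. Whether the peak marks open chromatin was not tested. With the highest peak at either gene end counted in place of the promoter peak, the mitochondrial median was 6.02 and the cytosolic 4.90.

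The 4 synthetase genes on chromosome 18, which are Hars, Hars2, Lars and Nars, had promoter peaks of only 3.37 to 3.84-fold. No start was used for these 4, so their peaks were counted at a gene end, and Hars and Hars2 have the same peak. The median over the 250 genes of that chromosome with a promoter peak was 6.29, close to that of all genes. Without these 4, the median was 6.02 for mitochondrial and 4.90 for cytosolic genes.

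The mitochondrial gene had the higher promoter peak in most pairings with a peak at both genes. A cytosolic and a mitochondrial gene for the same amino acid were set side by side in 17 pairings, with Fars2 and Eprs in 2 pairings each, and 14 had a promoter peak at both. The mitochondrial gene was higher in 9, the cytosolic gene in 4, and Hars and Hars2 share 1 peak. The widest gap was that of Farsa and Fars2 (3.83 and 11.5), and Mars1 and Mars2 (5.65 and 10.8), Rars and Rars2 (4.39 and 9.05) and Aars and Aars2 (4.19 and 7.36) had the same order. The opposite order was found for Vars and Vars2 (10.1 and 4.38), Eprs and Pars2 (7.58 and 4.62), Eprs and Ears2 (7.58 and 6.40) and Sars and Sars2 (4.62 and 3.75). No difference within a pair has an error, and several are small, such as Lars and Lars2 (3.50 and 4.12).

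**Figure D3:**
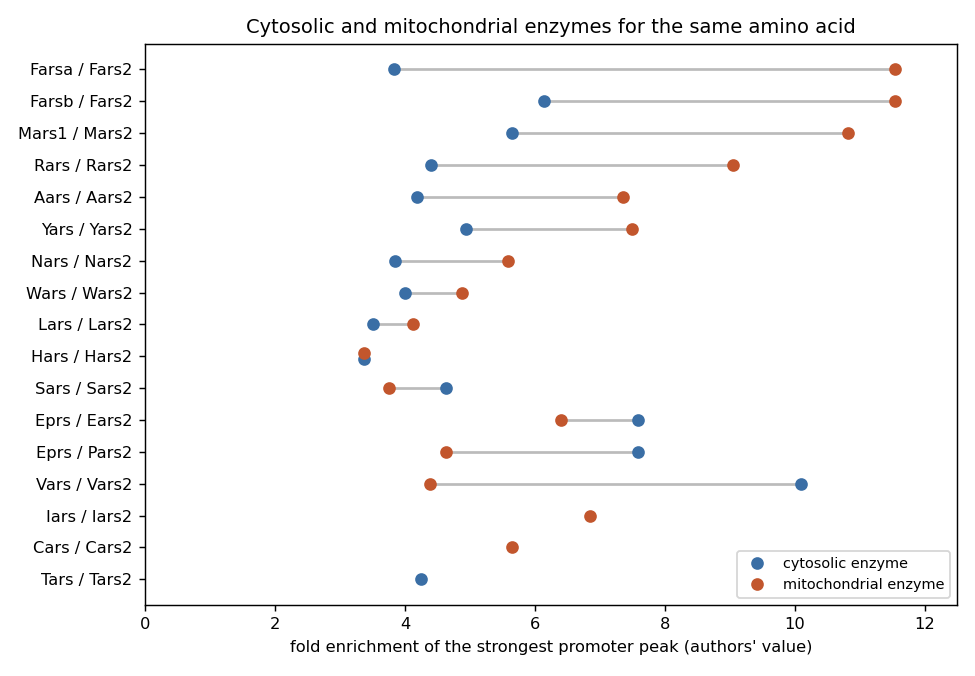
Fold enrichment of the strongest promoter peak (x axis, authors' value) of the cytosolic and the mitochondrial enzyme for the same amino acid, 1 pairing per line. The mitochondrial gene lies to the right in 9 of the 14 pairings with 2 peaks, and Vars and Vars2 are the widest gap in the other direction.

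Most start peaks had their summit close to the gene start. Over the 25 genes with a peak at a known start, the summit lay a median of 24 bp downstream of the start, and within 250 bp of it at 21 genes (84.0%), against 79.2% of all genes with a start peak. Counted from the start, with negative values upstream, the summit of Mars2 lay at -4 bp, that of Rars2 at -2 bp, that of Yars2 at 4 bp and that of Eprs at 24 bp. Beyond 250 bp lay Iars2 (430 bp), Dars (412 bp), Kars (-262 bp) and Yars. Yars had a pair of peaks of nearly equal fold, 4.94 with its summit at -829 bp and 4.93 with its summit at -212 bp. Start peaks had a median width of 530 bp at mitochondrial and 383 bp at cytosolic genes, against 476 bp over all genes.

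**Figure D4:**
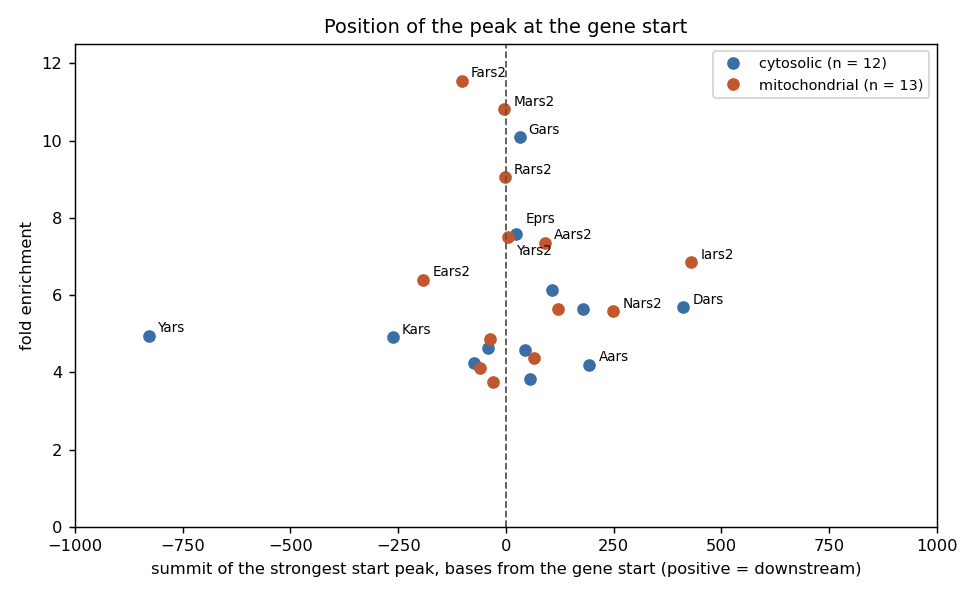
Distance of the summit from the gene start (x axis, bases, positive downstream) and fold enrichment (y axis) of the strongest start peak of 25 synthetase genes. Of the 25 points, 21 lie within 250 bp of the start, and the stronger peaks (Fars2, Mars2, Gars, Rars2) are among them.

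Several promoter peaks were shared with a neighbouring gene. At 12 of 33 synthetase genes (36.4%) another protein-coding gene had an end within 1 kb of the promoter peak, against 22.6% of all genes with one. The count was 7 of 15 for mitochondrial and 5 of 18 for cytosolic genes. Starts facing away from each other within 1 kb were found at 6 of 27 genes with a known start (22.2%), against 8.35% of all genes. They joined Kars to Terf2ip, a telomere protein gene (5 bp between starts), Rars2 to Orc3, of the origin recognition complex (15 bp), and Ears2 to Ubfd1 (112 bp). Sars2 faced Mrps12, a mitochondrial ribosomal protein gene (147 bp), Fars2 faced Lyrm4, of iron-sulphur cluster assembly (286 bp), and Yars faced S100pbp (324 bp). All 6 had a start peak, as did 79.5% of all genes with such a partner and 43.8% of those without. The peaks of these pairs cannot be assigned to one gene. Shared and unshared promoter peaks of synthetase genes had medians of 4.92 and 4.87-fold. By class they were 6.40 (7 genes) and 5.61 (8) for mitochondrial genes, and 4.90 (5) and 4.57 (13) for cytosolic genes. Over all genes they were 6.27 and 6.38.

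Of the 52 pairings of a synthetase gene with a peak in its window, 21 lay closer to an end of another protein-coding gene. Distances were taken to gene ends, so the 21 include some peaks at a synthetase gene's own start. That of Aars, with its summit 194 bp from the start, is among them. Others are 3 of the 4 peaks at Cars2, which sit around Ing1, and the peak of 10.7-fold near Mars1 (chromosome 10, 127288751 to 127289106). Its summit lay 1864 bp from an end of Ddit3, which encodes the stress transcription factor Chop, and 7292 bp from Mars1. Restricted to peaks whose nearest gene end was the gene's own, 29 of 36 synthetase genes kept a peak, against 45.9% of all genes. At the edge of the 10 kb rule, the peak of Farsa at 9799 bp (4.28-fold, near Calr) was counted, and that of Nars at 10391 bp (12.4-fold) was not.

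The promoter sequences of 6 genes are shown: for each class the 2 genes with the strongest peak at a known start, and the 2 genes with a known start and no peak. Each runs from 250 bases before to 50 bases after the start, on the gene's strand, from RefSeq (GRCm38.p6). Capitals mark matches on either strand to 9 motifs: CCAAT (NF-Y box), GGGCGG (GC box), CCGGAAG (ETS factors), TGACGTCA (CRE), TGATGNAA (CARE, the C/EBP-ATF response element read by Atf4), AANATGGC (YY1), TATAAA (TBP box), the NRF1 palindrome GCGC with 2 bases between its copies, and the palindrome TCTCG joined to CGAGA. The windows are chr6:55037751-55038050 for Gars, chr1:185362794-185363093 for Eprs, chr13:36117393-36117692 for Fars2 and chr1:55236927-55237226 for Mars2, all on the plus strand. Those of the genes with no peak are chr13:49681880-49682179 (plus strand) for Iars and chr3:95754928-95755227 (minus strand) for Tars2. Of the 300 bases, 245 lay inside the peak at Gars, 230 at Eprs, 300 at Fars2 and 252 at Mars2.
Gars: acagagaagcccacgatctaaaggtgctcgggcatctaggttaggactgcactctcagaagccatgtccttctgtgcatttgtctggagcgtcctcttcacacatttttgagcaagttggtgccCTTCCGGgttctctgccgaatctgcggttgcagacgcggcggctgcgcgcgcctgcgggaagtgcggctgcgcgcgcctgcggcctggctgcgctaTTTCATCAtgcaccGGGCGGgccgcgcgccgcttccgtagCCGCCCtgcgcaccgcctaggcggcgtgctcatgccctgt
Eprs: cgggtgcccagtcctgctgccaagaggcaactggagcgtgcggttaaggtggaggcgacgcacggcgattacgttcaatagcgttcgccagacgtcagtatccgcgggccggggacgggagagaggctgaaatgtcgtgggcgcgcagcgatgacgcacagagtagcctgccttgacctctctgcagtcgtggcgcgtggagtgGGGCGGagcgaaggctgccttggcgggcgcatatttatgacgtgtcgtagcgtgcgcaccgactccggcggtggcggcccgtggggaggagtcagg
Fars2: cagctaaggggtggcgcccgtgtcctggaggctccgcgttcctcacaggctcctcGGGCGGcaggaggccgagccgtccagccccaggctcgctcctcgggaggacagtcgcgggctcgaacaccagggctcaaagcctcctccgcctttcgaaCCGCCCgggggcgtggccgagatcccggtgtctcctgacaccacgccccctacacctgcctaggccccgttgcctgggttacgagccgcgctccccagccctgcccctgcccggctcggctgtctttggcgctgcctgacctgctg
Mars2: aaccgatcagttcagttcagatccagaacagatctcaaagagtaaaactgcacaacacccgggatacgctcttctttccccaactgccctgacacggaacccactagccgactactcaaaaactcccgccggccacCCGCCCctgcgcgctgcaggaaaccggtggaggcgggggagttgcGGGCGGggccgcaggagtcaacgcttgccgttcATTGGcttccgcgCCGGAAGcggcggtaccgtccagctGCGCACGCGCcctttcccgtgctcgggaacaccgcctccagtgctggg
Iars: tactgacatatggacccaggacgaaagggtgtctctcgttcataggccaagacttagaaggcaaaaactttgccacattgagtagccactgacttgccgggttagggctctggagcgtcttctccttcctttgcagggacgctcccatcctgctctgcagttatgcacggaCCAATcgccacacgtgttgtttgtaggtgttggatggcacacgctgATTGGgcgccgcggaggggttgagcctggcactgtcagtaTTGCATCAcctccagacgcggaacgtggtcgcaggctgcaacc
Tars2: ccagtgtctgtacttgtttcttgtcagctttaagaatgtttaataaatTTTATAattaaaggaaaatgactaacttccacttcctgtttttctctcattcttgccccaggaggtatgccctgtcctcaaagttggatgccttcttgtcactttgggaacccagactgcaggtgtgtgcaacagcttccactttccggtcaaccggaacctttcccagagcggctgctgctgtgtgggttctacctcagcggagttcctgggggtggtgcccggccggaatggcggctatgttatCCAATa

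The promoter of Mars2 holds GC boxes, an NF-Y box, an ETS motif and the NRF1 palindrome, and that of Fars2 a pair of GC boxes. Gars holds an ETS motif, a CARE and GC boxes, whereas Iars holds NF-Y boxes and a CARE, and Tars2 an NF-Y box and a TBP box. A match is a string of letters and does not show that a factor was bound.

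The CARE was more frequent at cytosolic synthetase genes than over all promoters. The 9 synthetase genes for which no start was used were not scanned. The element was present in 5 of 13 cytosolic promoters (Aars, Gars, Iars, Tars and Yars; 38.5%) and in 0 of 14 mitochondrial promoters. It was present in 3.50% of 17268 promoters of protein-coding genes, and in 1.68% of the 8073 with a start peak. At shares so low, its absence from 14 mitochondrial promoters does not set them apart from other genes. The exact core TGATGCAA was present at Aars, Iars, Tars and Yars, and in 0.892% of all promoters. The element lay inside a FAIRE peak at Aars, Gars, Tars and Yars, while Iars had none. The peaks that hold it at Aars, Gars, Tars and Yars stood at 4.19, 10.1, 4.24 and 4.93-fold, 3 of them below the median of all genes. The elements not shown above lie in the following stretches, with the CARE in capitals, for Aars (chr8:111033710-111033757, plus strand), Tars (chr15:11399646-11399693, minus strand) and Yars (chr4:129189886-129189933, plus strand). Counted from the start, the first base of the element is at -112 in Aars, -15 in Tars and 4 in Yars, against -30 in Gars and 8 in Iars. Aars holds another at 10.
Aars: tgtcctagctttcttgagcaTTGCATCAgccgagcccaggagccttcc
Tars: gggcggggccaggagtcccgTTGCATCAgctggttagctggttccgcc
Yars: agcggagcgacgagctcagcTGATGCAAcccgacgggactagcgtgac

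Of the other motifs, the GC box was the most frequent. It was present in 8 of 13 cytosolic and 11 of 14 mitochondrial promoters, against 73.1% of promoters with a start peak and 46.9% of all. The ETS motif was present in 5 of 13 and 4 of 14, against 18.4% and 12.1%. The YY1 motif was present in 1 of 13 cytosolic and 4 of 14 mitochondrial promoters (Aars2, Lars2, Wars2 and Yars2), against 8.76% and 6.75%. The NF-Y box was present in 13 of 27 (48.1%), against 37.7% of promoters with a start peak and 39.4% of all. The NRF1 palindrome was present in 5 of 27 (18.5%), against 16.2% and 8.91%, and the TBP box in 3 of 27 (11.1%), against 5.21% and 13.4%. The CRE and the remaining palindrome were present in none of the 27, and in 2.37% and 0.724% of all promoters.

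**Figure D5:**
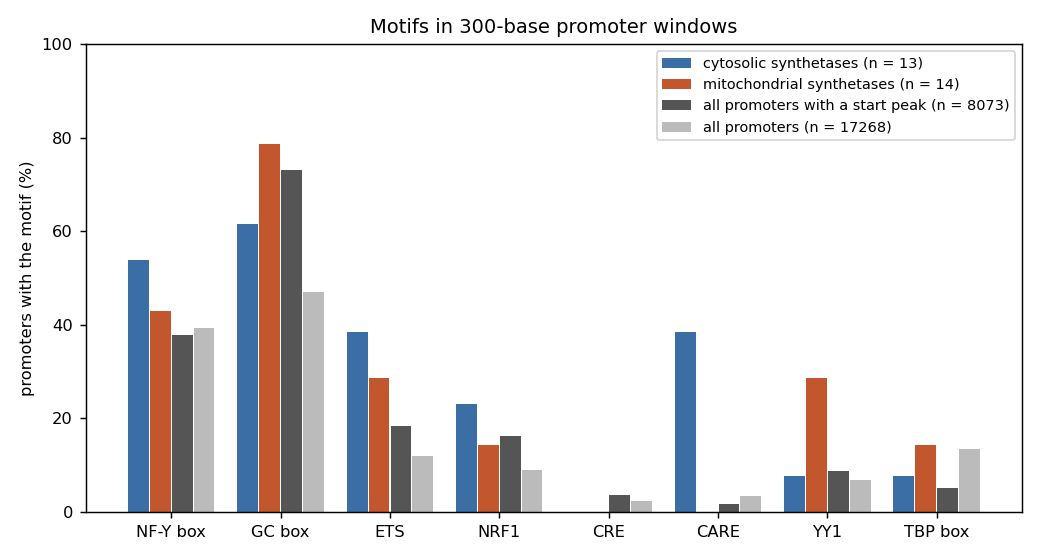
Share of promoters (%) holding each of 8 motifs in the 300-base window, for cytosolic and mitochondrial synthetase genes, all promoters with a start peak and all promoters; bars have no error. The CARE bar stands at 38.5% for cytosolic genes and 0 for mitochondrial genes, against 3.50% of all promoters.

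CpG dinucleotides are the textbook mark of broadly used promoters. The median count of them in the window was 16 at cytosolic and 19 at mitochondrial genes, against 24 over promoters with a start peak and 4 over those without. Tars2 had the fewest (7) and Eprs had the most (36). Across the 25 synthetase genes with a start peak, fold enrichment and CpG count had a Pearson's r of 0.60 and a Spearman's rho of 0.58, and across all 8073 genes with one 0.32 and 0.35. These genes share 1 table and 1 set of libraries, and the values are a description.

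Of 56 genes on lists of partners of the synthetases, 43 had a promoter peak, where 46.2% of all protein-coding genes had one. All 3 scaffold genes of the complex had one, Aimp1 at 7.87-fold, Eef1e1 at 5.01 and Aimp2 at 4.73. So did all 5 cytosolic elongation factor genes, led by Eef2 at 7.40, Eef1d at 6.58 and Eef1a1 at 4.28. Of 4 proofreading genes, 3 had one, with Aarsd1 the exception. Among 6 genes of tRNA processing and export, 5 had one, led by Trmt10c, of mitochondrial tRNA processing (11.6), Xpot, the tRNA exporter (11.5), and Elac1 (10.8), while Hsd17b10 had none. Of 11 helpers of mitochondrial translation, 7 had one, with a median of 4.75, and Qrsl1 and Gfm2 had no peak nearby.

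Of 20 genes listed for the amino acid response, which induces cytosolic synthetases in starved cells, 14 had promoter peaks, against 46.2% of all protein-coding genes. Their median was 5.56-fold, against 6.37 over all genes. They included Eif2ak4, the Gcn2 gene (7.59), and another kinase gene, Eif2ak3 (8.78). The transcription factor genes Cebpg (11.0) and Atf4 (5.13), and Asns, the asparagine synthetase gene (4.75), were also among them. The list is not limited to this response, since it holds the kinase genes Eif2ak1, Eif2ak2 and Eif2ak3 beside that of Gcn2. Atf4 and Asns were chosen for their role after their values were seen. Psat1, Chac1 and Nupr1 had no peak up to 10 kb from the gene. The CARE was found in 4 of the 20 promoters, those of Asns, Trib3, Chac1 and Nupr1, of which Asns had a promoter peak. It was found in 3.50% of all promoters and in 1.68% of those with a start peak. Among 7 amino acid carrier genes, 6 had a promoter peak, with a median of 5.54-fold, led by Slc7a1, the arginine carrier (11.2), and Slc7a5, the leucine carrier (7.56). Slc7a11, the cystine carrier, had no peak nearby and holds a CARE.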

How the data were processed

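FAIRE DNA was sequenced as 3 uterus samples, and a single peak table that names no sample was analysed. Build GRCm38.p5 and the tools Bowtie2, MACS2, HOMER and FastQC come from the notes on processing by the submitters; for versions, call threshold, input control and pooling, nothing is stated in the labels. Columns of the deposited file, per the file headers, hold a pileup (read here as the coverage signal at the summit) and a fold enrichment (a ratio to local background). A −log10 q-value per peak was likewise deposited, and the −log10 p-value was not used. Local background was computed as (pileup + 1) / fold − 1.

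Genes and promoters came from RefSeq tables of GRCm38.p6. Genes on chromosomes 1 to 19 and X were kept, without those starting below 3 Mb, where mouse chromosomes have an assembly gap. An overlap of 1 base counted. Chromosome coordinates do not change between patches of a build. No strand or exon was available beyond the promoter table. The procedures were tested on simulated data with planted peaks and motifs (Python 3.11.15, pandas 2.3.3).

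All synthetase genes were named by rule. They and the gene lists were chosen with earlier results of these data known, and the promoter rule, the subgroups and the pairings after the values were seen. Alternatives covered the flank, window, overlap, peaks, background genes and the class of Gars and Kars, counted as cytosolic.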

Additional observations from a re-analysis of the deposited data

How the results depend on the processing

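No sample could be left out in turn, because the table names none. No paired analysis was possible because the table gives no value per sample and no test was made. With flanks of 0 to 50 kb in place of 10 kb, 32 to 35 of 36 synthetase genes had a peak, against 48.8% to 70.8% of all genes, and 34 had one when the peak's centre or most of its width had to lie in the window or when peaks of high local background were left out. With the 6207 peaks of highest fold, genes with a peak in the 10 kb window numbered 17 (9 cytosolic, 8 mitochondrial), against 36.2% of all genes. With those of highest −log10 q they also numbered 17 (8 and 9), against 35.9%. At gene ends and by the promoter rule alike, the counts were 11 (4 and 7) and 11 (3 and 8), against 26.2% and 26% of all genes at gene ends and 27.5% and 27.2% by the promoter rule. The median of the highest fold per gene was 5.89 in the window (cytosolic 5.34, mitochondrial 6.40) and 4.94 at gene ends (4.90 and 6.02). The median promoter fold of cytosolic genes was 4.48 with Gars and Kars left out or counted as mitochondrial. Without the genes of chromosome 18 it was 4.90, and 6.02 for mitochondrial genes. The share of all genes with a peak in the window was 63.6% within the synthetase genes' range of lengths. It was 57.3% with genes starting below 3 Mb kept. The exact core of the CARE gave 4 cytosolic genes in place of 5. The promoter rule, the chromosome 18 and the core alternatives were chosen after seeing the data. Depth is unknown, so a missing peak, as at Iars, does not show closed chromatin.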
